A study of Mus musculus with 2 samples.

Results

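Of the 504 LRPPRC-FLAG sites that PAR-CLIP placed outside the mitochondrial genome of mouse embryonic fibroblasts (MEFs), 35 lay in 28 genes for small nucleolar RNAs (snoRNAs) or small Cajal body-specific RNAs (scaRNAs). They made up 6.94% of the nuclear sites (95% Wilson interval 5.04 to 9.50%) and 6.34% of all 552 sites. These sites were selected by position alone. Each had to share at least 1 base, on the same strand, with a gene annotated as snoRNA or scaRNA in GENCODE vM21, and none with a same-strand rRNA or snRNA gene. The annotation held 1530 such genes once models of 1 locus were joined, so that 1.83% of them had a site. The 28 genes were therefore chosen for having a site, and that they have one is not a result.

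The series held 1 experimental and 1 control PAR-CLIP sample of MEFs. The methods describe MEFs from Lrpprc-FLAG transgenic mice and do not say whether the control came from the same cells. By the labels, both samples were given 2 µg/ml doxycycline for 72 h. The methods name doxycycline as the inducer of LRPPRC-FLAG, but describe an inducible construct only for HeLa cells. The labels do not say what the control sample lacks, and its sites were not analysed here. LRPPRC is a pentatricopeptide repeat protein known for binding mitochondrial mRNAs together with SLIRP. In PAR-CLIP, a photoactivatable ribonucleoside is built into cellular RNA, ultraviolet light links it to bound protein, and the linked U is read as C after sequencing. The site list comes from 1 library, so nothing below has a spread between replicates, and no test was possible. Each entry of the list is a position and a width with no read count, so the depth behind a site is unknown.

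snoRNAs are short, stable RNAs that mostly reside in the nucleolus, and many are cut out of the introns of host genes. Those of the C/D box family carry a C box near the 5′ end and a D box near the 3′ end and guide ribose methylation. Those of the H/ACA box family fold into a pair of hairpins joined by a hinge with the H box, end with an ACA box and guide the conversion of U to pseudouridine. rRNA is the main target of both families, and scaRNAs carry the same boxes but act in Cajal bodies on spliceosomal snRNAs. U3 and U13 are C/D box RNAs that base-pair with pre-rRNA and serve its processing or acetylation instead of its methylation.

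The genes with a site comprised 9 of 377 annotated C/D box genes (2.39%, 95% interval 1.26 to 4.47%), 14 of 753 H/ACA box genes (1.86%, 1.11 to 3.10%) and 4 of 48 scaRNA genes (8.33%, 3.29 to 19.6%). One further gene, Gm24507, matched no class under the rules used for symbol and RefSeq product (U109), and its sequence ends with an ACA box. It was 1 of 352 unclassified genes. With identical genes counted once, 6 of 25 genes with a site were C/D box (24.0%). The C/D box genes held 13 sites, the H/ACA box genes 17, the scaRNA genes 4 and Gm24507 1. A single site was found in 21 genes and a pair of sites in 7. Fewer sites in a gene and fewer molecules of its RNA cannot be told apart in this list, and expression was not measured in it.

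The sequences below show the gene with the highest covered share in each class, and with them 4 genes chosen after their values were seen. These are U3 gene Rnu3b4, the near-copy of Snora81, a gene with the most frequent H/ACA layout, and the H/ACA box gene covered only in its 3′ hairpin. Letters are those of GRCm38 (mm10) read 5′ to 3′ on the strand of the gene, and capitals mark bases inside a site.
Snord32a (C/D, chr7:45127382-45127464, minus strand): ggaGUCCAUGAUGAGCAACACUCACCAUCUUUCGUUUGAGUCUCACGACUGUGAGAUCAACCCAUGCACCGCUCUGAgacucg
Rnu3b4 (C/D, chr11:87462286-87462501, plus strand): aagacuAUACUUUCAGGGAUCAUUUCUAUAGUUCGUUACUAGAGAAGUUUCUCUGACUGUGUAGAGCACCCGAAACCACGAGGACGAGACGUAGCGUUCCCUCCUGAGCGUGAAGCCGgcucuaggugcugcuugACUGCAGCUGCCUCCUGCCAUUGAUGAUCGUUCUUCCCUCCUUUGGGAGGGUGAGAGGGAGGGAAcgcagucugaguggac
Snora81 (H/ACA, chr16:23110756-23110933, plus strand): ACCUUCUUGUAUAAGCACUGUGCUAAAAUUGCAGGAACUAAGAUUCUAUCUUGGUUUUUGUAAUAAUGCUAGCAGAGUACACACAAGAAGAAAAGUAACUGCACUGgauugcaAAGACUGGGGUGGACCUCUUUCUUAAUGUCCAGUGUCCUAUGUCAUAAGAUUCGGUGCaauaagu
Gm22519 (H/ACA, chr15:71794188-71794365, plus strand): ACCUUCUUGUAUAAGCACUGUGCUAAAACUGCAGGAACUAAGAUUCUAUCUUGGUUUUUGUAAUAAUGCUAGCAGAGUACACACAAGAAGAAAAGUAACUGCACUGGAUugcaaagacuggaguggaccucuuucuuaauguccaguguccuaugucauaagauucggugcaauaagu
Snora75 (H/ACA, chr1:86351169-86351301, minus strand): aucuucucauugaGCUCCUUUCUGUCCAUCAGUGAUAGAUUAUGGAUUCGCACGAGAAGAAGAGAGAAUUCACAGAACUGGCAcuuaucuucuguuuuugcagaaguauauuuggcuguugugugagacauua
Gm26397 (H/ACA, chr8:126944847-126944980, minus strand): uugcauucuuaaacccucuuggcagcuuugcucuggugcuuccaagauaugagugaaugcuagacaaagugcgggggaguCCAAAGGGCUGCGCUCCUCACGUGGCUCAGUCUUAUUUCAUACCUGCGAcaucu
Gm23751 (scaRNA, chr6:125121724-125121859, plus strand): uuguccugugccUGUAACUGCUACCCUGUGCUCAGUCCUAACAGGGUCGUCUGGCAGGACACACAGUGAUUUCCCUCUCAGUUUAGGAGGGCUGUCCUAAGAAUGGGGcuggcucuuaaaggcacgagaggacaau
Gm24507 (unclassified, chr13:90098981-90099114, plus strand): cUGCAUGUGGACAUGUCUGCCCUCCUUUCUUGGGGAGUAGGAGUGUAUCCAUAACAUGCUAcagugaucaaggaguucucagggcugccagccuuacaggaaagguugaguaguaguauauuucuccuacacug

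Most sites lay within the mature RNA. Of the 35 sites, 32 lay wholly inside the annotated gene, 3 passed its 5′ end and 0 passed its 3′ end. A site with 1 or both ends passed was thus 8.57% of the set (95% interval 2.96 to 22.4%), and none of the 35 passed both. The 3 exceptions were all in H/ACA box genes. The site of Snora28 began 3 nt upstream of the gene, and those of Gm26447 and the first of Gm24119 began 2 nt upstream. The lowest share of a site's own bases inside its gene was 97.0%, in Snora28. With the ends of the RefSeq models, 7 sites passed the 5′ end, by at most 14 nt, and again 0 passed the 3′ end. With the starts of the list read as 1-based, 5 of the 35 (14.3%) passed an end. For comparison, 1 of 40 sites in snRNA genes passed an end (2.50%, 0.443 to 12.9%), also at the 5′ side, so that sites ending inside the mature RNA were found in both sets. The site nearest to a gene without touching it lay 122 nt downstream of Snora31, at chr14:75848156-75848280 within the host Tpt1, and was 125 nt wide.

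**Figure D1:**
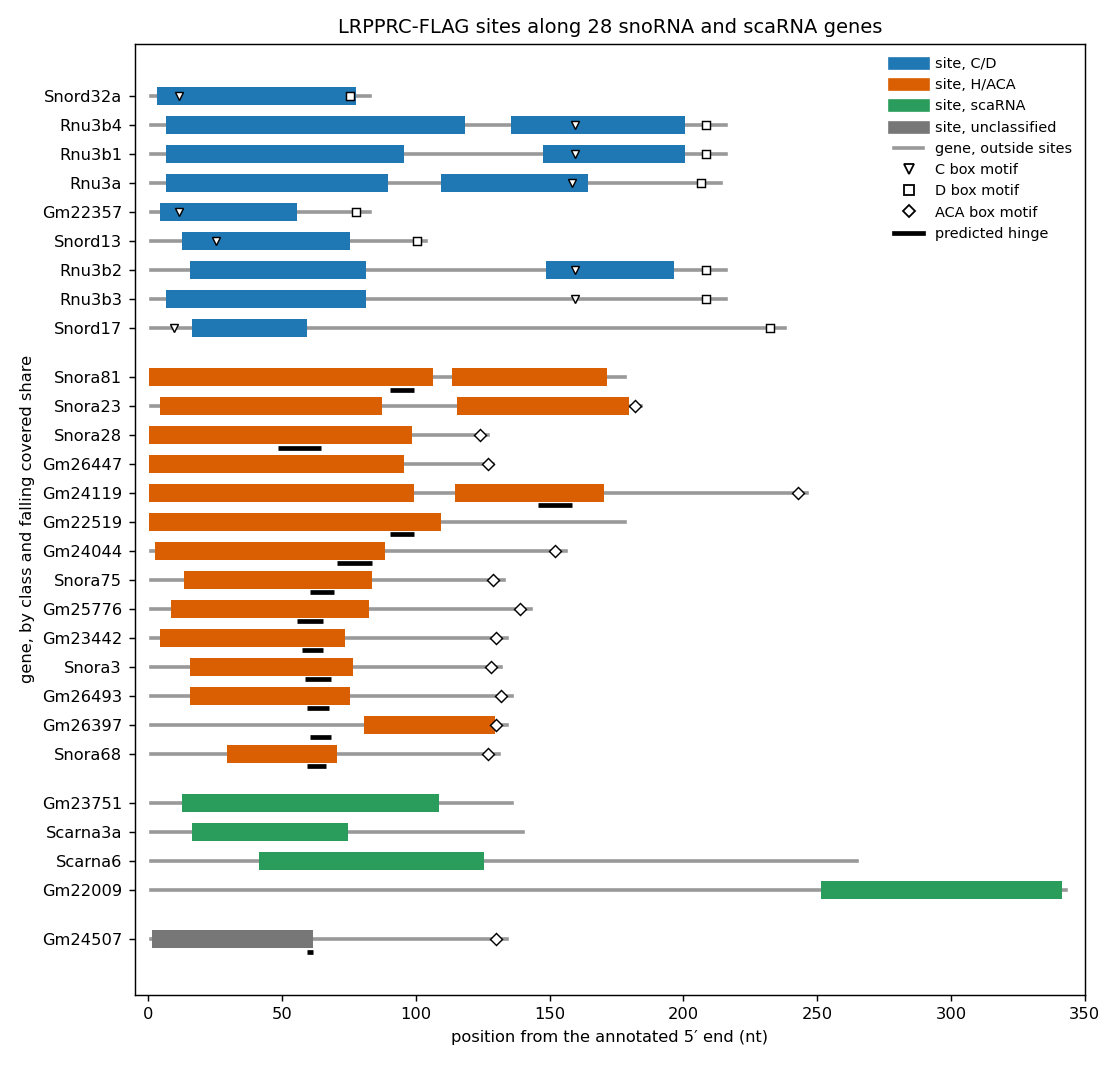
Position of the 35 sites (coloured bars) along the 28 genes (grey lines), in nt from the annotated 5′ end, grouped by class and ordered within it by covered share. Triangles, squares and diamonds mark the last C box, D box and ACA box motifs, and black bars mark the hinge of the predicted fold. Boxes are not drawn for scaRNAs, and bases of 3 sites before the 5′ end are left out. Most bars begin near the 5′ end and stop short of the 3′ end, and the D box of Snord32a is the only one inside a site.

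Within the genes, 2543 of 4745 bases (53.6%, 95% interval 52.2 to 55.0%) lay in a site. The covered share per gene had a median of 54.0% and ran from 18.1% in Snord17 to 92.1% in Snora81. Covered shares rest on the GENCODE ends, and RefSeq models of some genes start later. Pooled over bases it was 55.3% in C/D box genes, 59.7% in H/ACA box genes and 37.1% in scaRNA genes. In the 38 snRNA genes with a site it was 67.9% (66.7 to 69.0%). Bases of 1 site are not independent, so these intervals are narrower than the data allow.

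The sites lay towards the 5′ end of the RNA. The midpoint was on the 5′ side of the middle of the gene for 26 of the 35 sites (74.3%, 95% interval 57.9 to 85.8%). This count was 13 of 17 in H/ACA box genes, 9 of 13 in C/D box genes and 3 of 4 in scaRNA genes. Sites of the 4 identical U3 genes Rnu3b1 to Rnu3b4 are counted separately here, as are both sites of a gene. The counts are thus not of independent sites, and the interval does not allow for this. The distance from the 5′ end of the gene to the site had a median of 12 nt, against 61 nt from the site to the 3′ end. Of the sites, 24 began within 20 nt of the 5′ end, counting those that passed it, while 8 stopped within 20 nt of the 3′ end. The same position was seen in snRNA genes, where 30 of 40 midpoints (75.0%, 59.8 to 85.8%) were on the 5′ side.

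Each gene was then divided into 10 equal parts, numbered from the 5′ end. H/ACA box genes were covered most in part 4, at 93.5% of its bases, and the share fell from there to 14.95% in part 10. In C/D box genes part 2 had the highest share, 98.7%, part 6 had 35.4%, part 8 had 57.0% and part 10 had 10.1%. The U3 genes, 5 of the 9 C/D box genes, carry the second sites that lie in this later stretch. scaRNA genes were covered at 2.27% in part 1, at 61.4% in parts 3 and 4, and at 36.0% in part 10, where the bases of Gm22009 alone were in a site.

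**Figure D2:**
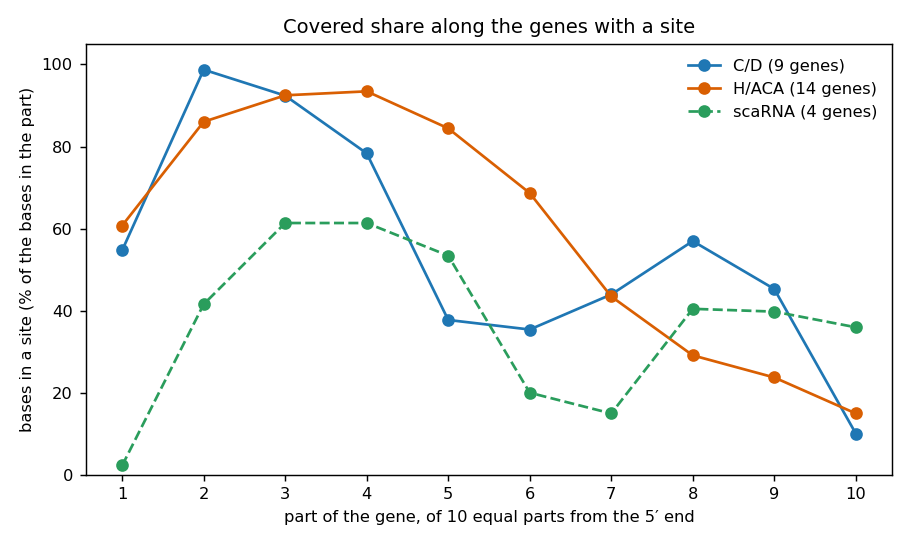
Share of bases in a site (vertical axis, %) in each of 10 equal parts of the gene from the 5′ end (horizontal axis) for C/D box, H/ACA box and scaRNA genes with a site. H/ACA box genes reach 93.5% in part 4 and fall to 14.95% in part 10. C/D box genes show a second, lower rise at part 8, where the second sites of U3 genes lie.

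Among the H/ACA box RNAs, which guide pseudouridylation, the most frequent layout was a site that lay over the 5′ hairpin, ran through the hinge and stopped at its end or within the 3′ hairpin. The fold of each of the 14 genes and of Gm24507 was predicted with RNAfold from sequence alone, without proteins. A pair of outer stems, each spanning at least 30 nt, was predicted for 13 of the 15. Sites covered 733 of 884 bases of the first stems (82.9%), 114 of 122 bases of the hinges (93.4%) and 234 of 862 bases of the second stems (27.1%). In 12 of the 13 genes 1 site held the entire hinge, and its 3′ edge lay 0 to 34 nt beyond the hinge with a median of 8 nt. In 10 genes under 25% of the second stem was covered.

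Snora75, within the nucleolin gene Ncl, had this layout. Its site ran from position 14 to 83 of 133, and held 79.7% of the first stem, the whole hinge at 61 to 69 and 24.6% of the second stem. With RefSeq ends the same site passed the 5′ end by 3 nt, so its first-stem share depends on the annotation. Gm23442 (SNORA38 by RefSeq, within Prrc2a), Gm24044 (SNORA62/SNORA6, within the ribosomal protein gene Rpsa) and Gm25776 (SNORA79, within the general transcription factor gene Gtf2a1) had 94.6%, 100% and 85.5% of the first stem in the site and 12.1%, 7.35% and 23.6% of the second. Gm26493 (SNORA46, within Cnot1, the scaffold of a deadenylase complex) and Snora3 (within Rpl27a) had 75.9% and 76.8% of the first stem and 12.5% and 14.04% of the second. Gm24507, within Tmem167, had its whole first stem in the site, which ended at position 61 with the last base of the hinge, and 0% of the second. Snora68 had the lowest covered share of the family. Its site of 41 nt covered 31.3% of 131 bases, 51.7% of the first stem and 6.78% of the second, yet held the hinge at 60 to 66. These shares rest on the GENCODE ends and were not computed with those of RefSeq.

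The second stem was covered more widely in the remaining 3 genes. Gm26397 (SNORA14, within Tomm20, the mitochondrial import receptor gene) had its site in the 3′ hairpin. It ran from position 81 to 129 of 134 (49 nt at chr8:126944852-126944900, minus strand, 36.6% of the gene), covered 0% of the first stem and 79.0% of the second, and ended on the first base of the ACA box. Snora28, within the translation initiation factor gene Eif5, was covered from its first base to position 98 of 127 (77.2%), with 100% of the first stem and 61.8% of the second. Its site of 101 nt at chr12:111540938-111541038, plus strand, was the one that reached farthest past a GENCODE 5′ end. With RefSeq ends it passed by 8 nt and the first site of Snora81 by 14 nt. Snora81, within Eif4a2, also a translation initiation factor gene, carried a site on each hairpin and had 100% and 89.0% of its stems covered.

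**Figure D3:**
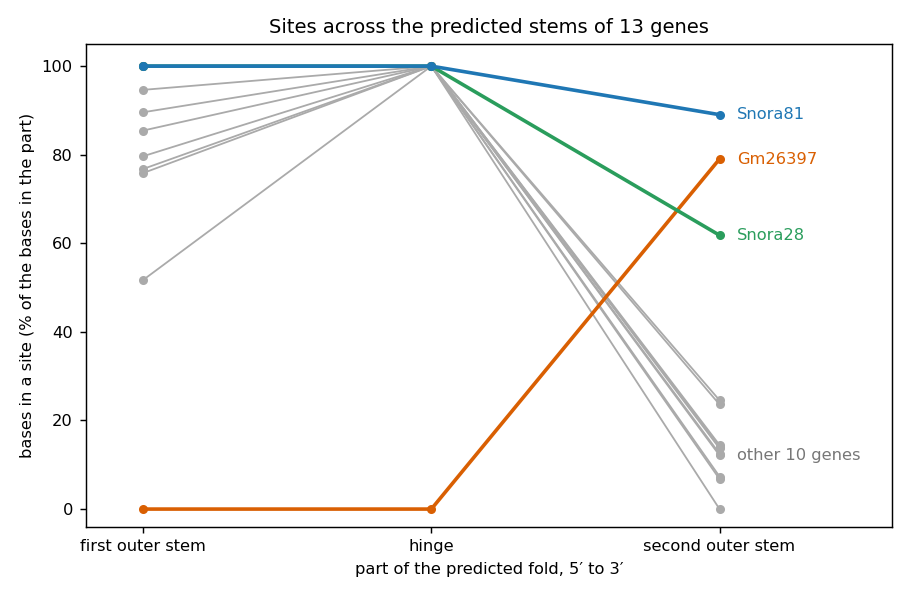
Share of bases in a site (vertical axis, %) in the first outer stem, the hinge and the second outer stem of the predicted fold, 1 line per gene, for the 12 H/ACA box genes and Gm24507 with a pair of predicted stems. The hinge is at 100% in 12 genes and at 0% in Gm26397, and 10 genes (grey) lie under 25% in the second stem.

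The H box letters ANANNA, where N is any base, were searched on the gene strand in the hinge and 3 nt to each side. They were found in 11 of the 13 genes, and in 10 of these the last match lay wholly in a site, the exception being Gm26397. The hinge itself was wholly in a site in 12 of the 13, so this count follows from the cover of the hinge. It does not single out the box. Gm24044 and Gm24507 had no match in this window. Of the 753 annotated H/ACA box genes, 391 (51.9%) had a predicted pair of stems, and 237 of these (60.6%) had the letters in the same window. Over all windows of 15 nt, the median length searched, in those 391 genes, 15.7% held them. The ACA box was searched only at the 3′ end, and part 10 of the H/ACA box genes had 14.95% of its bases in a site. Its count below thus follows from position too. The letters ACA within 10 nt of the 3′ end were present in 12 of the 14 H/ACA box genes with a site, against 68.4% of all 753 and 29.99% of the genes of other classes. These other classes include scaRNA and unclassified genes, among them Gm23751, Scarna3a and Gm24507, which carry the letters. In 0 of the 12 H/ACA box genes were the letters wholly inside a site, and in 1, Gm26397, a part was.

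The H/ACA box genes with a pair of sites were Gm24119, Snora23 and Snora81. In Gm24119 (SNORA53, within the mitochondrial phosphate carrier gene Slc25a3) the sites at chr10:91118438-91118538 and chr10:91118367-91118422, minus strand, were 101 and 56 nt wide. They left positions 100 to 114 uncovered, and 63.0% of the 246 bases were in a site. The first lay wholly before the hinge, and the second held the hinge at 146 to 158 and ended 12 nt after it. In Snora23, within the importin gene Ipo7, sites of 83 and 64 nt at chr7:110046368-110046450 and chr7:110046479-110046542, plus strand, covered 79.9% of 184 bases and left positions 88 to 115 uncovered. No pair of outer stems was predicted for Snora23. In Snora81 the sites of 106 and 58 nt at chr16:23110756-23110861 and chr16:23110869-23110926, plus strand, left only positions 107 to 113 between them. The gaps held 8 U in Gm24119, 6 in Snora23 and 2 in Snora81, and why no site was called there was not tested.

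Gm26447 (SNORA63) lies downstream of Snora81 within the same host, Eif4a2. Its site of 97 nt at chr16:23111299-23111395, plus strand, covered 73.6% of 129 bases, up to position 95, and its predicted fold had no pair of outer stems. Gm22519 (SNORA81 by RefSeq) is a near-copy of Snora81 on chromosome 15 that lies in no annotated host. The RNAs were identical at 176 of 178 positions (98.9%) and, counting from the 5′ end with the base of Snora81 first, differed by U29C and G122A. The first site of Snora81 ran from position 1 to 106 and that of Gm22519 from 1 to 109, and both hold the U29C position. A U read as C is the change that crosslinking produces, so a converted read of Snora81 has the letters of Gm22519 there. Whether reads of one gene were placed at the other was not tested. Gm22519 had no second site, and 61.2% of its bases were covered.

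Among the C/D box genes, the 5 annotated for U3 held 9 of the 13 sites. U3 is the abundant RNA that base-pairs with pre-rRNA through its 5′ part. Rnu3b1, Rnu3b2, Rnu3b3 and Rnu3b4 lie on chromosome 11 within the annotated span of Tex14 and are identical at all 216 positions. The sequence of each of their 7 sites therefore occurs 4 times in the genome. The aligner reported 1 place for a read, so how the sites are shared out among these 4 genes says nothing about the single copies. Laid on 1 another, the 7 sites covered 177 positions (81.9%) between 7 and 200, and positions 16 to 81 were covered in all 4 genes.

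In detail, Rnu3b4 had sites of 112 and 65 nt at chr11:87462292-87462403 and chr11:87462421-87462485, and 81.9% of its bases covered. Rnu3b1 had sites of 89 and 53 nt at chr11:87443243-87443331 and chr11:87443384-87443436, covering 65.7%. Rnu3b2 had sites of 66 and 48 nt at chr11:87471383-87471448 and chr11:87471516-87471563, covering 52.8%. Rnu3b3 had a single site of 75 nt at chr11:87448633-87448707, covering 34.7%. Every one of these sites is on the plus strand, and each U3B copy had a site that starts at position 7 or 16, while 3 of the 4 also had one that starts at 136 or later.

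Rnu3a, on chromosome 10 outside any host, differs from the U3B copies, with 85.4% identity to Rnu3b1. The exact sequences of both its sites occurred once in the genome, but the first had 11 places, its own included, when near-copies were counted. Counted from the 5′ end with the base of Rnu3a first, that site differed from Rnu3b1 by U34C and G85C. The first of these is again the change that crosslinking produces, and whether reads were shared between Rnu3a and the U3B copies was not tested. They lay at chr10:40258473-40258555 (83 nt) and chr10:40258576-40258630 (55 nt), plus strand, covered 64.5% of 214 bases and left positions 90 to 109 uncovered. The first site started at position 7, as in Rnu3b1, Rnu3b3 and Rnu3b4, and the second, from 110 to 164, lay nearer to the 5′ end than the second sites of the U3B copies. In U3 the letters UGAUGA lie inside the RNA, at positions 156 to 161 in Rnu3a and 157 to 162 in the U3B copies. The second site held them in Rnu3a and in the 3 U3B copies that had one.

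The other C/D box genes each had 1 site. Snord32a, a guide of rRNA methylation within Rpl13a, was covered from position 4 to 77 of 83 (74 nt at chr7:45127388-45127461, minus strand, 89.2%). It was the C/D box gene with the highest covered share and the single one with both box motifs inside the site. Gm22357 (SNORD24), 1 of 9 genes typed as snoRNA within the long non-coding RNA gene Gas5 (the symbol of 1 of them, Mir5117, is that of a microRNA), was covered from position 5 to 55 of 83 (chr1:161036061-161036111, plus strand, 61.4%). Its C box at 9 to 14 was in the site, and its D box at 76 to 79 was not. Snord13, the U13 gene, lies in no annotated host and was covered from position 13 to 75 of 104 (60.6%), with UGAUGA at 23 to 28 in the site. Snord17, within the sorting nexin gene Snx5, had the lowest covered share of all 28 genes. Its site of 43 nt at chr2:144266158-144266200, minus strand, covered positions 17 to 59 of 238, just past its UGAUGA at 7 to 12.

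The box motifs were counted over the family. The letters UGAUGA were found anywhere in all 9 C/D box genes with a site and in 84.4% of the 377 annotated. They lay wholly in a site in 7 of the 9, the exceptions being Rnu3b3 and Snord17. Rnu3b3 is identical to the other U3B copies, so its exception says nothing about that copy. Starting within 20 nt of the 5′ end they were found in 3 of the 9 (Gm22357, Snord17 and Snord32a), against 77.7% of all C/D box genes and 3.47% of the others. The D box letters CUGA, ending within 20 nt of the 3′ end, were present in 9 of the 9, in 96.8% of all C/D box genes and in 18.6% of the others. They lay in a site only in Snord32a, 1 of 9 genes (11.1%, 95% interval 1.99 to 43.5%). Part 10 of the C/D box genes had 10.1% of its bases in a site, so this count follows from position and does not single out the box. The 4 U3B copies among the 9 are identical, so these counts are not of independent genes. The others in these comparisons include scaRNA and unclassified genes. Overlapping matches were allowed, and motifs were read on the gene strand only.

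The 4 scaRNA genes each had 1 site. Gm23751 (SCARNA11, within the chromatin remodeller gene Chd4) had a site of 96 nt at chr6:125121736-125121831, plus strand, from position 13 to 108 of 136 (70.6%). Scarna3a, within the ubiquitin ligase gene Cop1, had a site of 58 nt at chr1:159340299-159340356, plus strand, from position 17 to 74 of 140 (41.4%). Scarna6, within the autophagy gene Atg16l1, had a site of 84 nt at chr1:87784597-87784680, plus strand, from position 42 to 125 of 265 (31.7%). Gm22009 (SCARNA7, within the importin gene Kpna4) was the exception in position, with a site of 90 nt at chr3:69085107-69085196, minus strand, from position 252 to 341 of 343 (26.2%). This site stopped 2 nt short of the 3′ end and held the CUGA that starts at position 335.

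The median width of the 35 sites was 69 nt, with quartiles of 58 and 89 nt and a range of 41 to 112 nt. The medians were 65 nt in C/D box genes (43 to 112), 70 nt in H/ACA box genes (41 to 109) and 87 nt in scaRNA genes (58 to 96). Sites in snRNA genes had a median of 100 nt (34 to 156), and the other 429 nuclear sites a median of 76 nt (15 to 849). Many of these 429 were exactly 75 nt wide, which was also their lower quartile. The source of that repeated width was not tested. The ranges overlapped, and no test was made, because sites of 1 list are not replicates.

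**Figure D4:**
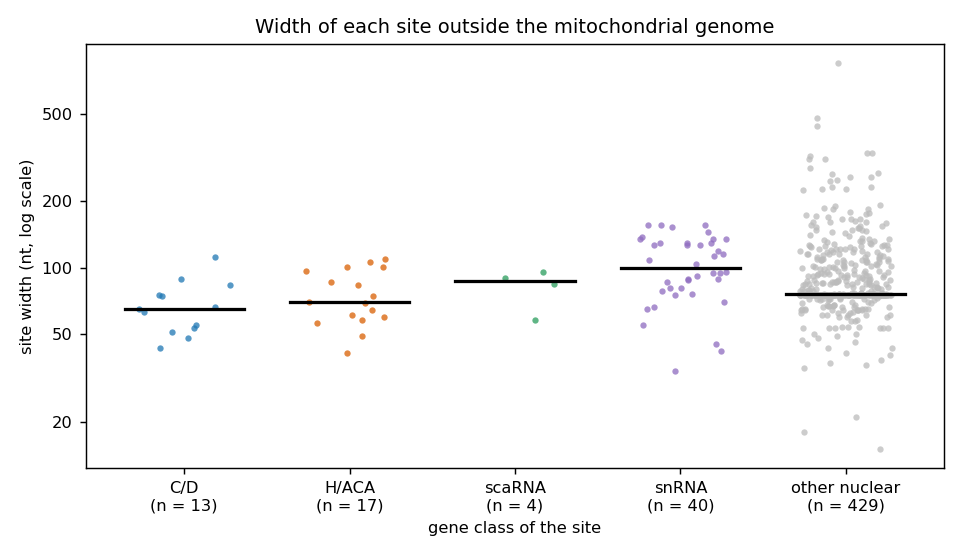
Width of each site outside the mitochondrial genome (nt, log scale), 1 point per site and a black line at the median, for C/D box, H/ACA box, scaRNA and snRNA genes and for all other nuclear sites. The single site of Gm24507 is not drawn. Sites in snoRNA and scaRNA genes lie between 41 and 112 nt, and those in snRNA genes between 34 and 156 nt.

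The C/D box genes with a site had a median length of 216 nt, against 79 nt for all 377. A site was found in 2 of 351 C/D box genes under 100 nt (0.570%, 95% interval 0.156 to 2.05%), in 1 of 16 of 100 to 149 nt and in 6 of 10 of 150 nt or longer (60.0%, 31.3 to 83.2%). These 6 were Snord17 and the 5 U3 genes, 4 of which are the identical copies. In the H/ACA box class 0 of 12 genes under 100 nt had a site, 9 of 722 of 100 to 149 nt did (1.25%, 0.657 to 2.35%), and 5 of 19 of 150 nt or longer did (26.3%, 11.8 to 48.8%). The median length of H/ACA box genes with a site was 135 nt, against 132 nt for all 753. A longer gene offers more positions for a site, and the levels of these RNAs were not in the list, so the part of either was not tested.

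**Figure D5:**
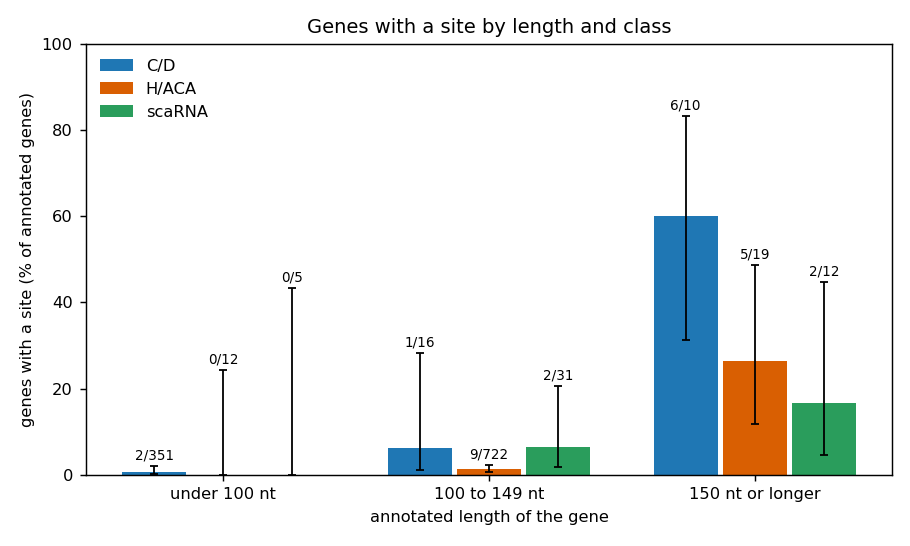
Share of annotated genes with a site (vertical axis, %) by annotated length and class, with 95% Wilson intervals and, above each bar, the number of genes with a site over the number annotated. The share is highest at 150 nt or longer in each class, at 60.0% in C/D box genes and 26.3% in H/ACA box genes.

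A crosslink needs a U, so the U content of the sites was set beside that of the remainder of the same genes. U made up 29.1% of the 2543 covered bases (95% interval 27.3 to 30.9%) and 28.7% of the 2202 uncovered ones. By class the covered and uncovered shares were 28.6% and 26.0% in C/D box genes, 30.6% and 29.5% in H/ACA box genes, and 23.8% and 31.1% in scaRNA genes. The U share was higher inside the sites in 18 of the 28 genes. In the predicted folds of the H/ACA box genes and Gm24507, 61.7% of covered bases and 60.3% of uncovered bases were paired.

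A host was annotated for 25 of the 28 genes (89.3%), against 681 of all 1530 (44.5%). The 25 include the 4 identical U3B copies in the span of Tex14, and the 1530 include 352 unclassified genes. A host here is a matter of position only, and whether an RNA is cut from its host was not tested. The hosts were 21 different genes. They were protein-coding for 24 of the 25, the other being Gas5. Rnu3a, Snord13 and Gm22519 had none. Rpl13a, Rpl27a and Rpsa, which encode ribosomal proteins, were among the hosts. Within the 21 hosts 48 snoRNA or scaRNA genes were annotated, and 25 of these had a site. Of the 11 hosts with more than 1 such gene, 10 held at least 1 without a site, the exception being Tex14. In Rpl13a, for example, Snord32a had a site and Snord33, Snord34 and Snord35a had none. In 8 genes, among them Gm22357, Gm24044, Gm26447, Snora28, Snora3, Snora75 and Snora81, the 9 sites lay in bases that at least 1 transcript of the host annotates as exon. The remaining sites of hosted genes lay in introns.

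The sequence of 28 of the 35 sites occurred exactly once in the genome, and the other 7 are those of U3B. Near-copies were taken as matches with at least 90% of bases identical and at least 90% of the site aligned, and 16 sites had none besides themselves.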

How the data were processed

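PAR-CLIP sites of 1 experimental library of MEFs were analysed. According to the methods and labels, the authors used random barcodes to discard PCR duplicates, trimmed reads with cutadapt 1.10, aligned them with Bowtie to mm10 with nuclear mitochondrial copies masked, reporting 1 place for a read, and called crosslinked regions with BMix. The deposited BED list gives chromosome, start, end and strand. The score column deposited by the authors was 0 in every line, so no depth or confidence is known for a site. The submitters' notes give the Bowtie version as 1.12.

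Starts were read as 0-based and are printed as 1-based. Genes came from GENCODE vM21, with same-strand models of at least 80% reciprocal overlap joined, which turned 1507 snoRNA and 51 scaRNA models into 1530 genes. Bases were read from GRCm38.p6, and all 1558 models were identical to their annotated transcript sequence there. Class came from symbol or RefSeq product. All 28 genes with a site matched a RefSeq model, as did 1193 of the 1530. A host is a same-strand protein-coding or long non-coding gene that contains the gene. Near-copies were searched with blastn 2.17.0 and folds predicted with RNAfold 2.7.2. Other steps used Python 3.11.15, SciPy 1.17.1, pysam 0.24.0, Biopython 1.88, Matplotlib 3.10.9 and samtools 1.23.1. Intervals are 95% Wilson intervals and cover counting error only. The geometry of sites in genes was tested on simulated data.

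Every gene with a site is named. Coordinates of sites are given for the 5 highest and 2 lowest covered shares in the C/D and H/ACA classes, for each scaRNA and for genes with more than 1 site. Sequences are given for the highest share in each class. Exceptions are named as chosen afterwards. The host and site position of Snora68 are not reported here. The members and lists were chosen with earlier results of these data known. Alternatives concerned overlap, strand, width, merging, annotation, box windows, genome copies and the start convention.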

Additional observations from a re-analysis of the deposited data

How the results depend on the processing

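Of 36 alternatives to 9 results, 0 reversed and 29 stayed close to the reported value, which for a count means within 1.5 times it and for a share or a width within its 95% interval. When sites narrower than the nuclear median (77 nt) were dropped, 13 sites in 13 genes were left and the covered share was 47.5%. By box motifs alone 10.7% of the genes with a site were C/D box, because U3 and U13 do not carry UGAUGA within the 5′ window. With 5 nt or more required, 0% of sites passed an end, and with 10 nt or more 0% did. With only genes with 1 site, an alternative added after the data were seen, 90.9% of H/ACA box sites had their midpoint on the 5′ side. With RefSeq snoRNA and guide RNA models 26 sites were left, since RefSeq types the U3 genes as snRNA, which removes 9. A stricter score threshold was not run, because every score is 0. No paired analysis was possible because the list comes from 1 library. Depth limits every absence here, since a gene or base without a site may be unbound, not expressed or too thinly read, and these cannot be told apart from the list. Control sites were not analysed here, so no background could be set beside the counts.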
